A study of Mus musculus with 6 samples.

Results

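Chemokine and other chemoattractant receptors of bone-marrow-derived macrophages were followed across IL4 and 5 compounds. The receptors were taken by gene symbol: the chemokine receptors Ccr1, Ccr2, Cx3cr1 and Cxcr4, the anaphylatoxin receptors C3ar1 and C5ar1, and the formyl peptide receptors Fpr1 and Fpr2. These are 8 of 16775 genes in the tables, and all 8 were among the 11898 genes that reached 1 CPM, a count scaled to the size of its library, in at least 1 library. The macrophages were derived from marrow of C57BL/6 mice by 5 days of culture in M-CSF (10 ng/ml), which drives macrophage differentiation, and were then treated for 24 hours. One library each came from cells given IL4 with fatostatin, IL4 with betulin, IL4 with 25-HC, IL4 with PF429424 and IL4 with 1,10-Phen, and 1 library came from cells given IL4 alone. All 6 cultures received IL4, a cytokine of type 2 immunity under which macrophages take on the alternative activation state. The labels give no doses, do not expand 25-HC or 1,10-Phen, and do not say whether animals were pooled.

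Chemoattractant receptors are G protein-coupled receptors of the cell surface that read gradients of secreted chemokines, of complement fragments or of formylated bacterial peptides. Bound receptors act mainly through inhibitory G proteins to steer the actin cytoskeleton, raise calcium and activate phosphoinositide 3-kinase, and are then silenced by receptor kinases and arrestins. In the monocyte and macrophage lineage, Ccr2 is known for the exit of monocytes from marrow, Cx3cr1 marks patrolling monocytes and many tissue macrophages, and the complement receptors recruit and activate phagocytes.

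Each treatment was sequenced once, so differences lack any check by replicates and are given with no p: a ratio compares 2 libraries and not 2 conditions. The libraries held between 20181396 and 21169667 estimated counts, and 3 counts, used as the limit of detection, correspond to between 0.137 and 0.161 CPM. Ratios are on the log2 scale, compound library over IL4 library, and their 95% intervals cover counting error only. A gene is called higher or lower where the ratio was at least 2-fold and the interval excluded no change. All 5 ratios of a gene share the IL4 library, so a high value in that library and a low value common to the compound libraries cannot be told apart. All 8 macrophage markers were above 0 in each library, with a summed level between 7122 and 11337 CPM in the compound libraries, against 10633 CPM in the IL4 library. Lyz2 alone gave 4520 CPM of the IL4 sum. Among the 8, Mertk was called lower with 25-HC, PF429424 and 1,10-Phen, Adgre1 with 25-HC and Fcgr1 with 1,10-Phen. Cd14 was called higher with 25-HC. Of the 11898 genes, 5.69%, 5.63% and 11.8% were lower with 25-HC, PF429424 and 1,10-Phen, and 3.27% higher with 25-HC. Csf1r and Adgre1 were below the IL4 library with all 5 compounds, and none of the 8 was above it with all 5. The median log2 ratio of the 8 was 0.08, -0.28, -0.48, -0.25 and -0.46 with fatostatin, betulin, 25-HC, PF429424 and 1,10-Phen.

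By FPKM, which is scaled to transcript length and so allows genes to be compared, the receptors held the same order at the top in every library: C3ar1, then C5ar1, Ccr1, Cxcr4 and Ccr2. C3ar1, the receptor for the complement fragment C3a, stood at 178, 185, 219, 156 and 234 FPKM in the fatostatin, betulin, 25-HC, PF429424 and 1,10-Phen libraries, against 182 FPKM in the IL4 library. C3ar1, C5ar1 and Ccr1 together made up 88.8%, 89.2%, 86.2%, 93.3% and 93.8% of the summed FPKM of the 8 receptors in those compound libraries, against 84.5% in the IL4 library. Cx3cr1, Fpr1 and Fpr2 lay at or below 2.6 FPKM everywhere, and their order differed between libraries. The spread over the 6 libraries, as highest over lowest TMM-scaled CPM, was 1.38 for C5ar1, 1.61 for C3ar1, 1.65 for Ccr1 and 2.89 for Cxcr4. It was 6.57 for Ccr2, 12.3 for Cx3cr1, 6.01 for Fpr2 and 17.1 for Fpr1, whose values rest on few counts.

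**Figure D1:**
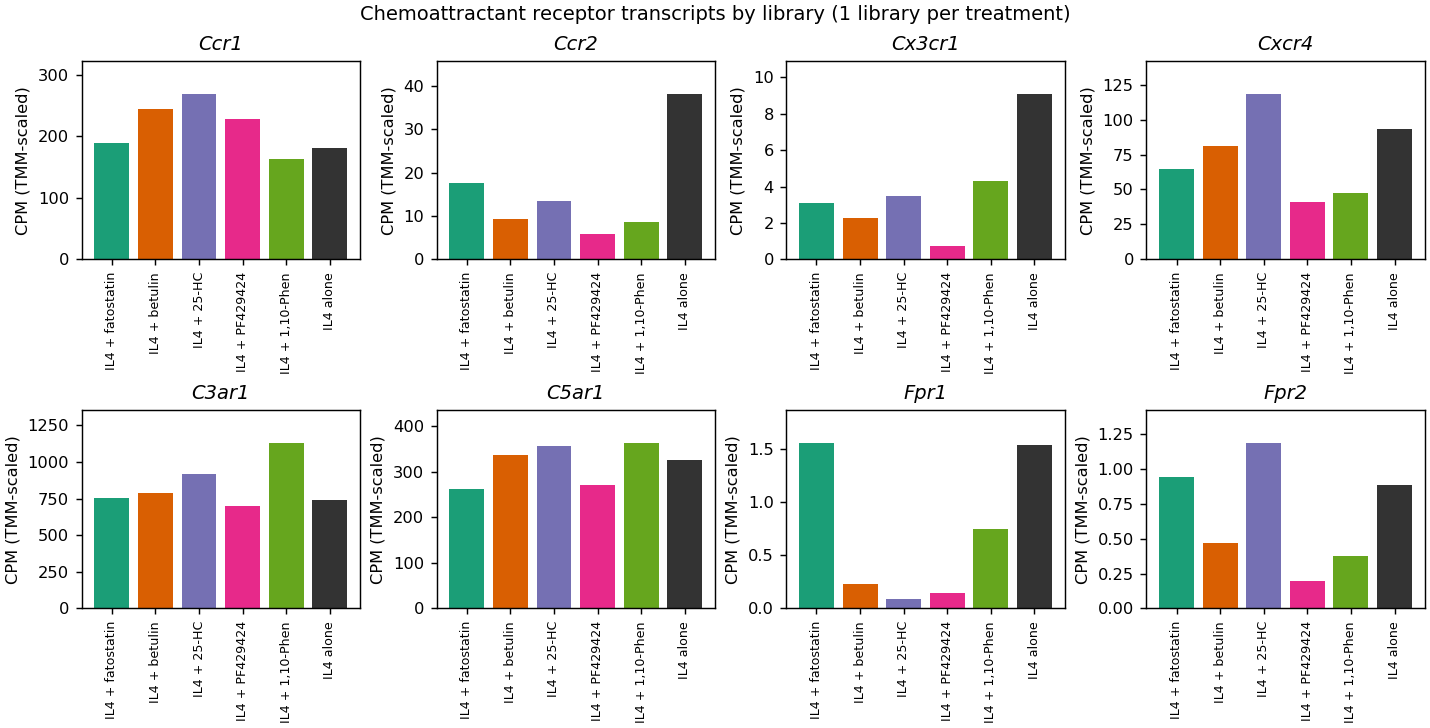
Level of each receptor in each library, in TMM-scaled CPM on linear axes that start at 0 and differ between panels; bars are single libraries, with the compound libraries on the left and IL4 alone on the right. Ccr2 and Cx3cr1 stood highest in the IL4 library, at 38.1 and 9.08 CPM, whereas C3ar1 stood highest in the 1,10-Phen library, at 1127 CPM.

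Counted by compound, none of the 8 receptors was called higher in any comparison. With fatostatin 2 of the 8 were called lower, Ccr2 and Cx3cr1, where 1.06% of all 11898 genes compared were lower by the same rule and 0.874% higher, 1.93% in either direction. With betulin 3 were lower, Ccr2, Cx3cr1 and Fpr1, against 2.29% of all genes lower and 1.91% higher, 4.19% in either direction. With 25-HC 3 were lower, Ccr2, Cx3cr1 and Fpr1, against 5.69% of all genes lower and 3.27% higher, 8.96% in either direction. With PF429424 5 were lower, Ccr2, Cx3cr1, Cxcr4, Fpr1 and Fpr2, against 5.63% of all genes lower and 2.49% higher, 8.12% in either direction. With 1,10-Phen 2 were lower, Ccr2 and Cx3cr1, against 11.8% of all genes lower and 7.59% higher, 19.4% in either direction. Fpr1 and Fpr2 are in these counts, though they passed the filter only through libraries in which they were high. A filter at a CPM of 5 left out both. The counts lower were then 2, 2, 2, 3 and 2 of 6 with fatostatin, betulin, 25-HC, PF429424 and 1,10-Phen. Of all 8 receptors, the 1,10-Phen count was 5 when scaled to library totals. Against the median of the 6 libraries the counts were 1, 0, 1, 2 and 0 in the same order of compounds, the 1 with fatostatin being Fpr1, higher.

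The median log2 ratio of the 8 receptors was -0.15 with fatostatin, -0.50 with betulin, 0.22 with 25-HC, -1.46 with PF429424 and -0.96 with 1,10-Phen. All genes compared had medians of 0.01, 0.01, 0.01, 0.02 and -0.02 in the same order. The count of receptors with a ratio below 0 was 4, 5, 3, 7 and 6 of 8. These counts share the IL4 library, and Fpr1 and Fpr2 passed the filter only through libraries in which they were high. For Fpr1 these were the fatostatin and IL4 libraries, and for Fpr2 the 25-HC library. A filter at a CPM of 5 left out both and kept 6 receptors. Their medians were -0.425, -0.098, 0.186, -0.765 and -0.56 in the same order of compounds.

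**Figure D2:**
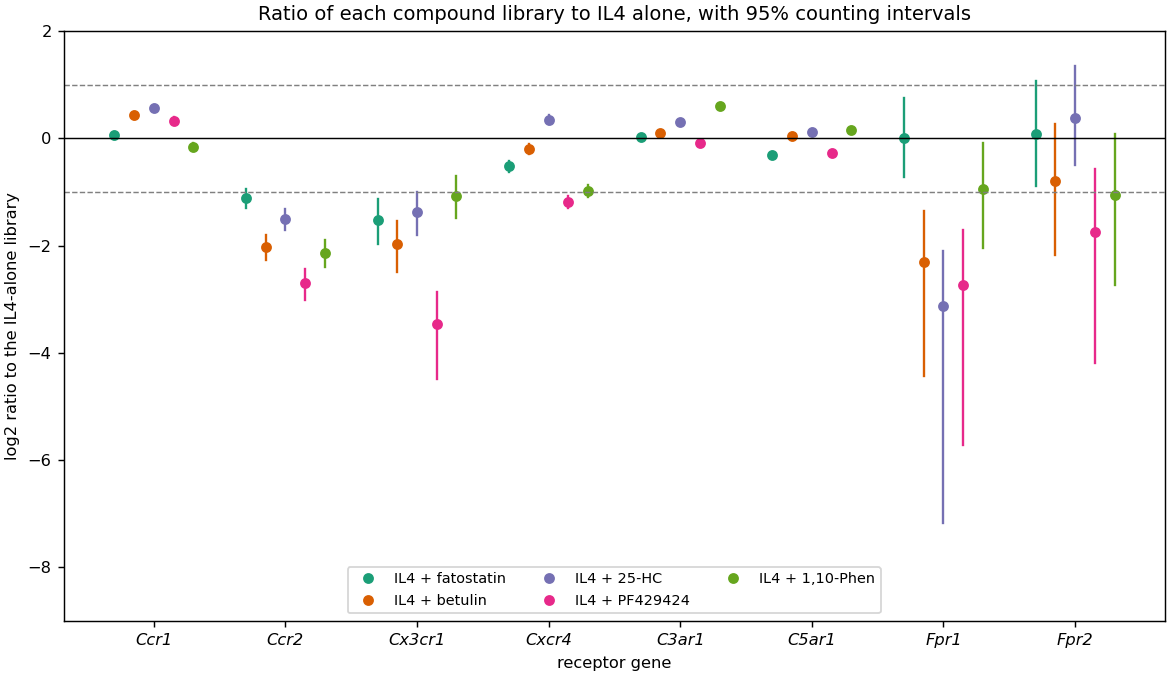
Log2 ratios of the 8 receptors, each compound library over the IL4 library, with exact 95% counting intervals; points are single comparisons of 2 libraries, and the dashed lines mark 2-fold. Ccr2 and Cx3cr1 lie below the lower line with all 5 compounds, and the intervals of Fpr1 and Fpr2 are the widest.

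Ccr2 and Cx3cr1 were lower than in the IL4 library with all 5 compounds. Ccr2, the receptor for the monocyte chemoattractants Ccl2, Ccl7 and Ccl12, lies on the plus strand at chr9:124101918-124109140 (GRCm38). Its level was 17.6 CPM with fatostatin, 9.33 CPM with betulin, 13.4 CPM with 25-HC, 5.81 CPM with PF429424 and 8.62 CPM with 1,10-Phen, against 38.1 CPM in the IL4 library. The IL4 library stood above all 5 compound libraries; PF429424 was the lowest, and the betulin and 1,10-Phen libraries did not differ from each other beyond counting error. These levels rest on 374, 199, 295, 118 and 161 counts in the compound libraries, against 819 counts in the IL4 library. The log2 ratio was -1.11 (95% interval -1.30 to -0.94) with fatostatin, -2.02 (-2.26 to -1.81) with betulin and -1.5 (-1.70 to -1.31) with 25-HC. It was -2.70 (-3.01 to -2.44) with PF429424 and -2.13 (-2.40 to -1.90) with 1,10-Phen. In fold terms Ccr2 was between 2.16 and 6.48 times lower than in the IL4 library. The estimated counts of Ccr2 were not whole numbers in any of the 6 libraries, and nor were those of Cx3cr1. Some of their reads were thus shared out between genes or transcripts, and both levels are uncertain to that extent. Cxcr4 and Fpr2, with 3 transcripts each, and C5ar1, with 2, had whole counts in all 6 libraries. With which genes or transcripts the reads were shared was not tested. In bulk RNA, fewer cells of a type and less RNA per cell cannot be told apart.

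Monocyte markers were set beside Ccr2, since it is high in monocytes. All 6 were above 0 in every library. Their summed level was 268, 322, 291, 286 and 404 CPM with fatostatin, betulin, 25-HC, PF429424 and 1,10-Phen, against 321 CPM in the IL4 library, and F10 alone gave 278 CPM of the IL4 sum. Between 1 and 2 of the 6 markers were called lower in each comparison, and 1 was called higher with 1,10-Phen. Of all genes compared, between 1.06% (fatostatin) and 11.8% (1,10-Phen) were lower, and 7.59% were higher with 1,10-Phen. Ly6c2, a surface protein of inflammatory monocytes, had log2 ratios of 0.17, -0.03, 0.03, -0.04 and -1.06 in the same order of compounds. Vcan, a proteoglycan of monocytes, had log2 ratios of -2.36, -1.39, -2.42, -2.18 and -0.08. The part of monocytes in the Ccr2 values was not tested.

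Cx3cr1, the receptor for the membrane-anchored chemokine fractalkine, lies on the minus strand at chr9:120048683-120068296. Its level was 3.11 CPM with fatostatin, 2.25 CPM with betulin, 3.46 CPM with 25-HC, 0.738 CPM with PF429424 and 4.29 CPM with 1,10-Phen, against 9.08 CPM in the IL4 library. The IL4 library was again above all 5 compound libraries and PF429424 below the others, while the remaining 4 formed a run in which neighbours did not differ beyond counting error. The counts behind these levels were 66, 48, 76, 15 and 80, against 195 in the IL4 library. The log2 ratio was -1.52 (-1.97 to -1.14) with fatostatin, -1.97 (-2.50 to -1.55) with betulin and -1.37 (-1.79 to -1.0) with 25-HC. It was -3.46 (-4.49 to -2.86) with PF429424 and -1.07 (-1.48 to -0.70) with 1,10-Phen. Cx3cr1 was thus between 2.10 and 11 times lower than in the IL4 library. Set against the median of the 6 libraries in place of the IL4 library, Ccr2 was within 2-fold with all 5 compounds, and Cx3cr1 was past 2-fold with PF429424 only, at a log2 ratio of -2.02. On the log2(FPKM + 1) scale, which understates low genes, Cx3cr1 was within 2-fold with fatostatin at -0.97, 25-HC at -0.83 and 1,10-Phen at -0.83.

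Ccr1, a receptor for Ccl3, Ccl6 and Ccl9 in mice, lies 133.2 kb before Ccr2 on chromosome 9, at chr9:123962126-123968692 on the minus strand. Its level was 190 CPM with fatostatin, 244 CPM with betulin, 269 CPM with 25-HC, 228 CPM with PF429424 and 163 CPM with 1,10-Phen, against 182 CPM in the IL4 library. The 25-HC library was the highest and the 1,10-Phen library the lowest, with the IL4 library between them. The log2 ratios were 0.06, 0.43, 0.57, 0.33 and -0.15 in the same order of compounds, all within 2-fold. Ccr1 thus stood within 2-fold in the libraries in which Ccr2 was lower, and the FPKM of Ccr1 over that of Ccr2 was 13.8, 33.6, 25.7, 49.99 and 24.6 in the compound libraries, against 6.13 in the IL4 library. The tables place Ccr1 and C3ar1 on the plus strand, whereas GENCODE M21 gives minus for both; the sources used here do not state whether counting used the strand.

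Ccr3, the eotaxin receptor, lies between Ccr1 and Ccr2. It had 156, 133, 128, 53 and 185 counts with fatostatin, betulin, 25-HC, PF429424 and 1,10-Phen, against 155 counts in the IL4 library. Its log2 ratios were 0.02, -0.21, -0.30, -1.44 and 0.45 in the same order of compounds. Ccr3 was called lower with PF429424 only, whereas Ccr2 was called lower with all 5 compounds.

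**Figure D3:**
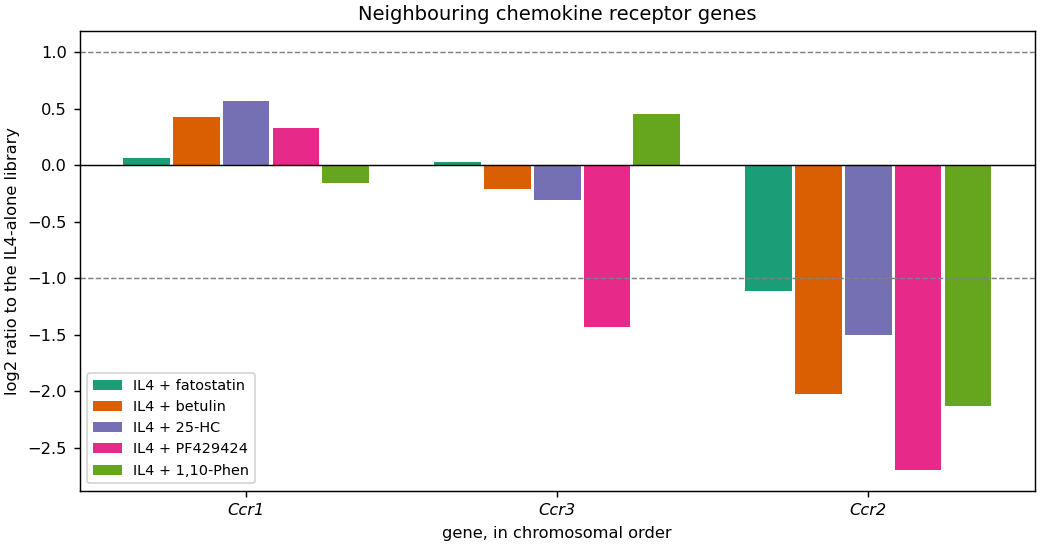
Log2 ratios of Ccr1, Ccr3 and Ccr2, in the order of the genes along the chromosome, for each compound library over the IL4 library; each bar compares 2 libraries, and the dashed lines mark 2-fold. Ccr2 lies below the lower line with all 5 compounds, Ccr3 with PF429424 only, and Ccr1 stays within 2-fold in each.

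Cxcr4, the receptor for Cxcl12 that retains cells in marrow, lies on the minus strand at chr1:128588199-128592299. Its level was 64.8 CPM with fatostatin, 81.1 CPM with betulin, 118 CPM with 25-HC, 40.9 CPM with PF429424 and 47.1 CPM with 1,10-Phen, against 93.0 CPM in the IL4 library. The 25-HC library was the highest and the PF429424 library the lowest, and each pair of neighbours in this order differed beyond counting error. The log2 ratio was -0.52 (-0.62 to -0.42) with fatostatin, -0.20 (-0.29 to -0.10) with betulin and 0.35 (0.26 to 0.43) with 25-HC. It was -1.19 (-1.31 to -1.07) with PF429424, which is called lower, and -0.98 (-1.10 to -0.87) with 1,10-Phen, which is 1.97 times lower and so just under the 2-fold limit. Cxcr4 passed it with 1,10-Phen when scaled to library totals, at -1.22, and on the log2(FPKM + 1) scale, at -1.19. Genes responsive to low oxygen, chosen after their values were seen, are set beside this value because Cxcr4 is a known target of the HIF factors. With 1,10-Phen the log2 ratio was 8.94 for Egln3, 4.94 for Bnip3 and 2.89 for Vegfa, all HIF targets, and -1.11 for Hif1a. Egln3 was also called higher with PF429424, at 2.69, where Cxcr4 was called lower, while Bnip3 at 0.15 and Vegfa at 0.71 were within 2-fold. Vegfa was called higher with 25-HC at 1.83, where Cxcr4 was highest, and with fatostatin at 1.15. Egln3 and Bnip3 were within 2-fold there, at 0.705 and 0.041 with 25-HC and 0.43 and 0.12 with fatostatin. Their relation to Cxcr4 was not tested.

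The starts of Cx3cr1 and Cxcr4 are shown because both were lowest in the PF429424 library and differed with 25-HC, where Cxcr4 was highest and Cx3cr1 was called lower. The 250 bases before each start were read from RefSeq (GRCm38.p6) on the strand of the gene, 5′ to 3′, from chr9:120068297-120068546 for Cx3cr1 and from chr1:128592300-128592549 for Cxcr4, both on the minus strand, with capitals for matches to the motifs searched.
Cx3cr1: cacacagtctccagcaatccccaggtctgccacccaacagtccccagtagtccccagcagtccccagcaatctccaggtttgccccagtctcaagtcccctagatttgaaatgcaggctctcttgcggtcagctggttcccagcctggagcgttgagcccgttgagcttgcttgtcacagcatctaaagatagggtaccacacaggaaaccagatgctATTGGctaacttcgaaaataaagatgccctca
Cxcr4: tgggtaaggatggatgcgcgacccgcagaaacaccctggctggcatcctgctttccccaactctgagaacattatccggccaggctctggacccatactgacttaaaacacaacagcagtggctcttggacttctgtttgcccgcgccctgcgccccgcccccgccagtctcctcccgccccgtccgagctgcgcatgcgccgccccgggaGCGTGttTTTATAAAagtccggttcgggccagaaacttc
Searched on both strands were ACGTG and GCGTG, the core letters of HIF sites, GAGGAAGT for PU.1, TTC and GAA spaced by 4 free bases for STAT6, TATAAA for a TATA box and CCAAT. Cx3cr1 holds CCAAT on the opposite strand, 32 bases upstream, which occurs in 33.8% of 32851 promoters of the same length. Cxcr4 holds GCGTG 39 bases upstream, which occurs in 28.2% of promoters, and TATAAA on both strands 30 and 32 bases upstream, matches that overlap each other, which occurs in 12.4%. Of the other receptors, Ccr1 holds GCGTG 25 bases upstream, C3ar1, Fpr1 and Fpr2 hold TATAAA, and C5ar1, Fpr1 and Fpr2 hold CCAAT. The Ccr2 window and the C5ar1 window lie partly or wholly within the annotated span of their own gene, so they are upstream of 1 annotated start only, and the Ccr2 window is not printed for that reason. None of the 8 windows holds ACGTG, GAGGAAGT or the STAT6 motif, found in 16.6%, 2.4% and 5.9% of promoters. A match is a description of letters, and an absence says only that these letters are not in this window. The GC content was 53.6% for Cx3cr1 and 61.2% for Cxcr4, against a median of 52.4% over all promoters.

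The anaphylatoxin receptors stayed within 2-fold in all 5 comparisons. C3ar1 lies at chr6:122847140-122856157 on the minus strand. Its level was 753 CPM with fatostatin, 791 CPM with betulin, 916 CPM with 25-HC, 702 CPM with PF429424 and 1127 CPM with 1,10-Phen, against 741 CPM in the IL4 library. The 1,10-Phen library was the highest, with a log2 ratio of 0.61 (0.58 to 0.64), and the fatostatin and IL4 libraries did not differ beyond counting error. C5ar1, the receptor for C5a, lies at chr7:16246743-16259540 on the minus strand, and its level was 262, 337, 355, 270 and 362 CPM in the same order of compounds, against 325 CPM in the IL4 library. The fatostatin and PF429424 libraries were the lowest, with log2 ratios of -0.31 (-0.36 to -0.26) and -0.27 (-0.32 to -0.22). C3, the precursor of C3a, was called lower with 25-HC, PF429424 and 1,10-Phen, at log2 ratios of -1.21, -2.49 and -2.68, while C3ar1 stayed within 2-fold in each. Hc, which encodes the precursor of C5a, had at most 1 count in any library.

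The formyl peptide receptors had few counts, at most 33 for Fpr1 and 26 for Fpr2. Fpr1 and Fpr2 are neighbours on chromosome 17, 3.9 kb apart, at chr17:17876471-17883939 on the minus strand and chr17:17887824-17893952 on the plus strand. Fpr1 reached 1 CPM before scaling in 2 libraries only, fatostatin and IL4, and had 33 counts with fatostatin, 5 with betulin, 2 with 25-HC, 3 with PF429424 and 14 with 1,10-Phen, against 33 counts in the IL4 library. The fatostatin and IL4 libraries did not differ beyond counting error. Its log2 ratio was -2.31 (-4.43 to -1.35) with betulin, -3.13 (-7.18 to -2.11) with 25-HC and -2.74 (-5.73 to -1.71) with PF429424, all called lower. With a prior count of 10 the ratios with 25-HC and PF429424 were -1.82 and -1.68, still called lower. Its log2 ratio was 0.01 (-0.73 to 0.76) with fatostatin and -0.95 (-2.05 to -0.09) with 1,10-Phen. Fpr2 reached 1 CPM before scaling in the 25-HC library alone and had 20, 10, 26, 4 and 7 counts in the same order of compounds, against 19 counts in the IL4 library. It was called lower with PF429424 only, at -1.74 (-4.18 to -0.58), and no neighbours in the order of its levels differed beyond counting error. On the log2(FPKM + 1) scale Fpr1 with betulin was at -0.93 and Fpr2 with PF429424 at -0.59, within 2-fold. Anxa1, which encodes annexin A1, a ligand of formyl peptide receptors, stayed within 2-fold, with log2 ratios of -0.12, 0.57, 0.83, 0.75 and -0.81 in the same order of compounds.

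Neutrophil markers were set beside the formyl peptide receptors, which neutrophils carry at high level. Of 13 markers in the tables, 12 were compared, and 1, 1, 1, 8 and 8 were called lower with fatostatin, betulin, 25-HC, PF429424 and 1,10-Phen, against 0, 1, 3, 0 and 0 called higher. Of all genes compared, 1.06%, 2.29%, 5.69%, 5.63% and 11.8% were lower and 0.874%, 1.91%, 3.27%, 2.49% and 7.59% higher. The median log2 ratio of the 12 markers was 0.28, 0.40, 0.43, -1.70 and -2.66. The summed level of the 13 markers was 476, 819, 827, 468 and 913 CPM, against 825 CPM in the IL4 library. Mmp8 alone gave 96.7, 460, 456, 382 and 832 CPM of these sums, against 527 CPM in the IL4 library. The neutrophil gene Ly6g was at 0 with PF429424 and 1,10-Phen, against 5 counts in the IL4 library, a difference within counting error. Retnlg was at 0 with PF429424, against 13 counts in the IL4 library. The part of neutrophils in the Fpr1 and Fpr2 values was not tested.

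The ligands of the receptors are also made by macrophages, and 19 of 25 listed ligands or their precursors were compared. Ccl7, a ligand of Ccr2, was called higher with all 5 compounds, at log2 ratios of 1.2, 1.75, 1.31, 1.70 and 1.58 with fatostatin, betulin, 25-HC, PF429424 and 1,10-Phen. Ccl2 was called higher with betulin at 1.52 and PF429424 at 1.45, and had ratios of 0.90, 0.996 and 0.51 with fatostatin, 25-HC and 1,10-Phen. The ratio with 25-HC was just under the 2-fold limit. Ccl12, a further Ccr2 ligand, was called higher with betulin only, at 1.29, and had ratios of 0.34, -0.81, 0.87 and -0.34 with fatostatin, 25-HC, PF429424 and 1,10-Phen.

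The ligands of Ccr1 differed by compound. Ccl3 had log2 ratios of 0.45, 0.90, 1.38, 1.53 and -2.56, called higher with 25-HC and PF429424 and lower with 1,10-Phen. Ccl4, a chemokine related to Ccl3, had log2 ratios of 0.62, 0.98, 1.37, 1.5 and -1.99, called in the same 3 libraries. Ccl6 was called lower with 25-HC at -1.16 and 1,10-Phen at -2.10, and Ccl9 with 1,10-Phen at -2.27. For Cx3cr1, Cx3cl1 (fractalkine) had ratios of -0.21, -0.36, -0.50 and -0.43 with fatostatin, betulin, 25-HC and PF429424, and was called lower with 1,10-Phen at -2.04. Cxcl12, the ligand of Cxcr4, stayed within 2-fold with ratios of 0.66, 0.16, 0.16, 0.17 and 0.43, at most 8.0 CPM in any library.

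Over the 19 ligands or precursors compared, 0, 1, 4, 3 and 9 were called lower and 3, 4, 5, 4 and 3 higher with the 5 compounds in order, with median log2 ratios of 0.34, 0.53, -0.09, 0.39 and -0.94. Of all genes compared, 1.06%, 2.29%, 5.69%, 5.63% and 11.8% were lower and 0.874%, 1.91%, 3.27%, 2.49% and 7.59% higher. Ccl24, an eotaxin, was called lower with betulin at -1.54, 25-HC at -4.13, PF429424 at -4.03 and 1,10-Phen at -4.37. Ccl22, a ligand of Ccr4, was called lower with 1,10-Phen, at -4.33. Cxcl16 was called lower with PF429424 at -2.17 and 1,10-Phen at -2.25. Cxcl2, a neutrophil attractant, was called higher with betulin at 2.44, 25-HC at 2.30 and 1,10-Phen at 1.44. Cxcl14 was called higher with 25-HC at 1.37, and Mif, a cytokine that also binds Cxcr4, with 1,10-Phen at 2.58. Outside the naming rule, Ccl5 at 1.04 and Ccl8 at 1.53 were called higher with fatostatin, on 47 and 21 counts with fatostatin against 22 and 6 in the IL4 library. Ccl8 was called lower with 25-HC, at 0 counts with 25-HC against 6 in the IL4 library, and it passed the filter only through the fatostatin library, where it was highest.

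**Figure D4:**
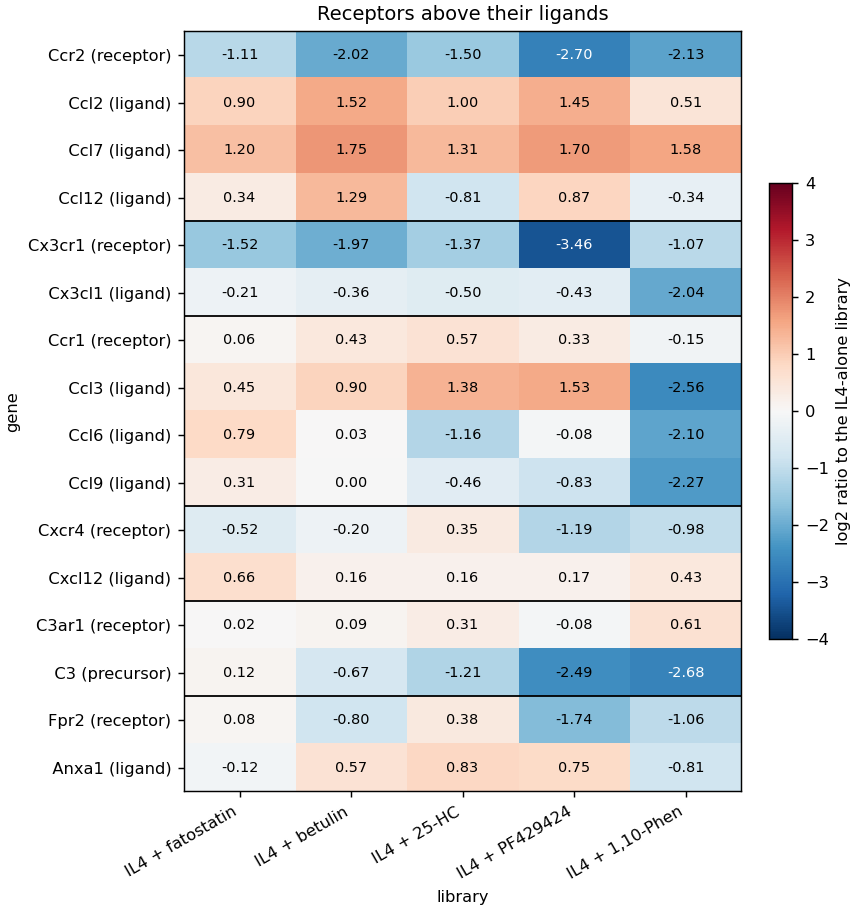
Log2 ratios, each compound library over the IL4 library, for the receptors and, below each, its ligands or their precursors, with the value printed in each cell; colour runs from lower to higher. Ccl7 is higher with all 5 compounds and Ccr2 is lower with all 5.

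Of 31 other chemoattractant receptors listed, Ccr3 included, 26 were in the tables and 15 were compared. With fatostatin, betulin, 25-HC, PF429424 and 1,10-Phen, 0, 0, 1, 5 and 1 were called lower and 0, 1, 1, 1 and 2 higher, with median log2 ratios of 0.02, -0.37, -0.50, -0.74 and 0.23. Of all genes compared, 1.06%, 2.29%, 5.69%, 5.63% and 11.8% were lower and 0.874%, 1.91%, 3.27%, 2.49% and 7.59% higher in the same order. The counts with 1,10-Phen, and the 1 lower with 25-HC, are near these shares. Ccrl2, a chemerin-binding receptor that does not signal, was called higher with betulin at 1.51, 25-HC at 1.43 and PF429424 at 1.11. Cmklr1, the signalling receptor for chemerin, was called lower with PF429424 at -1.21 and 1,10-Phen at -2.84. C5ar2, a further C5a receptor, was called lower with PF429424 at -1.02, as were Cysltr1, for cysteinyl leukotrienes, at -1.03 and S1pr1, for sphingosine 1-phosphate, at -1.39. Gpr35 was called higher with 1,10-Phen, at 2.34. Outside the naming rule, and named after their values were seen, Cysltr2 was called lower with 25-HC at -1.09, and Ackr3, a scavenging receptor for Cxcl12, was called higher with 1,10-Phen at 3.03 (1.96 to 7.07), at 1.45 CPM with 1,10-Phen against 0.09 CPM in the IL4 library. Ackr3 passed the filter only through the 1,10-Phen library, where it was highest.

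Of 19 genes of receptor signalling, none was called in the first 4 comparisons, and with 1,10-Phen 2 were called lower: Plcb2, a phospholipase, at -1.31 and Pik3r6, a phosphoinositide 3-kinase subunit, at -1.03, a share near the 11.8% of all genes lower there. Of 14 desensitisation genes, 0, 0, 0, 0 and 2 were called lower and 0, 1, 3, 1 and 1 higher. For both lists, the shares of all genes lower were 1.06%, 2.29%, 5.69%, 5.63% and 11.8% in the same order of compounds. The shares higher were 0.874%, 1.91%, 3.27%, 2.49% and 7.59%. The desensitisation counts with 1,10-Phen are near these shares. Rgs1, which speeds the shut-off of G proteins, was called higher with betulin at 1.5, 25-HC at 2.55 and PF429424 at 1.68. With 25-HC, Rgs2 at 1.26 and Rgs16 at 2.15 were also called higher. With 1,10-Phen, Rgs2 at -1.60 and Rgs18 at -1.10 were called lower and Grk5, a receptor kinase, was called higher at 1.04.

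As a description over 6 libraries, the genes whose levels followed each receptor most closely were found by Pearson's r of log2 CPM. For Ccr2 they were Gdpd5 (r = 0.986) and Sema4a (r = 0.974), and for Cx3cr1 they were Icosl (r = 0.976) and S1pr1 (r = 0.971). For Ccr1 they were Rhoc (r = 0.984) and Dot1l (r = 0.983), and for Cxcr4 they were Pram1 (r = 0.948) and Hyls1 (r = 0.940). For C3ar1 they were Tfpi2 (r = 0.991) and Fosl2 (r = 0.989), and for C5ar1 they were Btg1 (r = 0.883) and Map3k9 (r = 0.882). The 6 points share 1 scaling, and up to 2690 candidates were searched for each receptor.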

How the data were processed

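Total RNA, 1 ug per library, of 6 macrophage libraries was sequenced, 1 library per treatment. The deposited tables give, per the file headers, an estimated count (expected count) for every gene, unscaled. In each library 30.5% to 32.0% of these are not whole numbers. The deposited FPKM values, per the file headers, were scaled by the authors to transcript length and library size. HISAT2, Bowtie2, DESeq2 and RSEM 1.2.12 are named, with no role, per the submitters' processing notes. Positions come from RefSeq on GRCm38, the build of the chromosome accessions in the tables.

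Counts were rounded and scaled with TMM over all genes and 6 libraries (edgeR 4.0.16, R 4.3.3). Log2 ratios used a prior count of 2 and exact Clopper-Pearson 95% intervals (SciPy 1.17.1, Python 3.11.15), which cover counting error only. With 1 library per treatment no test was run. The procedure was tested on simulated data for the fatostatin and IL4 libraries only. Changes were placed in genes with higher counts than Fpr1 and Fpr2, so changes at counts as low as theirs were not covered. The 8 alternatives were size factors of DESeq2 1.42.0, scaling to library totals, dropping the filter, raising it to a CPM of 5, prior counts of 10 and 0.5, log2(FPKM + 1), and the median of the 6 libraries as denominator.

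The receptors, gene lists and naming rule were chosen with earlier results of these data known. All 8 receptors are named. From the list of other receptors, 1 gene is not reported here and was left out of its counts and median. List genes are named when past 2-fold beyond counting error in at least 1 comparison and at 5 CPM or more in either library, and Cx3cl1, Cxcl12, Anxa1 and Hc were added as ligands of the receptors. Nearest patterns are the 2 genes with the highest r per receptor among those that reach 5 CPM and a log2 range of at least 1, which left out Fpr1 and Fpr2. Dendritic cell, lymphocyte and mast cell markers each summed to at most 13.6 CPM in any library. Stromal markers summed to 76.9, 34.3, 63.5, 39.8 and 96.9 CPM with fatostatin, betulin, 25-HC, PF429424 and 1,10-Phen, against 98.5 CPM in the IL4 library. Col1a1 and Col1a2 gave 47.8 and 48.8 CPM of the IL4 sum and were called lower with betulin and PF429424. The other stromal markers were low: Col3a1, Dcn and Lum had at most 8 counts in any library, and Pdgfra at most 31. Siglecf, an eosinophil marker, was called lower with 1,10-Phen, at -3.71. Their part in the receptor values was not tested.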

Additional observations from a re-analysis of the deposited data

How the results depend on the processing

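No paired analysis was possible because each treatment has 1 library, and no library could be left out for the same reason. DESeq2 size factors, no filter and a prior count of 10 changed no call of a receptor, though a prior count of 10 moved Fpr1 to -1.82 with 25-HC and -1.68 with PF429424. Against the median of the 6 libraries the count of receptors past 2-fold was 1 with fatostatin (Fpr1, higher), 0 with betulin, 1 with 25-HC, 2 with PF429424 and 0 with 1,10-Phen, in place of 2, 3, 3, 5 and 2. There Ccr2 turned to 0.65 with fatostatin and 0.26 with 25-HC, Cx3cr1 to 0.076 with 25-HC and 0.38 with 1,10-Phen, and the receptor median with 1,10-Phen was -0.11; by construction the IL4 library is then 1 of 6. With log2(FPKM + 1) the count was 1 with fatostatin, and the medians were 0.14 with 25-HC and -0.80 with PF429424; this scale understates low genes. A CPM of at least 5 left 6 receptors, with 3 past 2-fold and a median of -0.77 for PF429424. Library totals gave 5 receptors with 1,10-Phen, adding Cxcr4 at -1.22, Fpr1 at -1.17 and Fpr2 at -1.26, and moved the median of all genes to -0.25 there and to -0.11 with PF429424. With PF429424 that scaling called 216 genes higher and 871 lower, where TMM called 296 higher and 670 lower; with 1,10-Phen it called 641 higher and 1940 lower, where TMM called 903 and 1408. A prior count of 0.5 added Fpr1 with 1,10-Phen at -1.01.

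Over all genes, 230, 499, 1066, 966 and 2311 were called with fatostatin, betulin, 25-HC, PF429424 and 1,10-Phen. The counts moved by over 1.5 times with log2(FPKM + 1) (70, 177, 514 and 492 in the first 4), a CPM of at least 5 (103 with fatostatin and 285 with betulin), a prior count of 10 (128 with fatostatin), no filter (348 with fatostatin) and the median as denominator (89, 302 and 192 with betulin, 25-HC and PF429424). Depth limits Fpr1 and Fpr2, whose highest counts were 33 and 26.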
